A study of Drosophila melanogaster with 35 samples.

Results

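Heads of flies carrying the demethylase-dead KDM5 change JmjC were compared with heads of flies carrying the missense changes A224T or L854F, with 3 RNA-seq libraries of each strain, which are 9 of the 35 samples of the series. They were chosen by genotype label: JmjC was set against the equal-weight mean of A224T and L854F, and no WT library entered the difference. The samples are whole heads of *Drosophila melanogaster*, kept at 25 °C under 12 h of light and 12 h of dark at 50% humidity, and taken 1 to 5 days after eclosion in the morning. Per the series text, JmjC is a synthetic strain without demethylase activity, while A224T and L854F model changes of human KDM5C found in Claes-Jensen syndrome, a form of intellectual disability. The sources used here do not give the sex of the flies, how the alleles were placed in the genome, how many lines stand behind a strain or whether replicates came from separate cultures. The spread behind the p-values is that within strains over all 23 RNA-seq head libraries of the series, with the 5 WT libraries as 1 group. It may be technical. WT levels are given last and come from WT 3 to WT 5 (n = 3), the WT libraries that share with the 9 libraries a level of roX2, a noncoding RNA of male dosage compensation, under 5 CPM.

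KDM5 proteins remove methyl groups from lysine 4 of histone H3, a mark found at the start of transcribed genes, and the JmjC domain is the part of the protein that carries out this reaction. KDM5 also has domains that bind DNA and modified histones, so a change outside the catalytic centre can leave the enzyme intact and alter other contacts. The fly has a single Kdm5 gene, which is expressed broadly in the brain and other head tissues.

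Gene counts per library totalled 16787755 to 18026543 in JmjC heads, 19886973 to 20623758 in A224T heads and 19386690 to 20403005 in L854F heads, so the JmjC libraries were the shallower ones. Replicates of a strain always differed by more than sampling noise, with a chi-square of 7.84 to 32.1 per degree of freedom. Kdm5 (2L 5989400 to 5999501, dm6) measured 457, 434 and 470 CPM in JmjC heads, against 542, 500 and 516 CPM in A224T, 526, 520 and 568 CPM in L854F and 445, 497 and 532 CPM in WT 3 to 5. The JmjC libraries lay below all 6 missense libraries and overlapped the WT libraries. The log2 fold of JmjC against the mean of both missense strains was -0.22 ± 0.057 (SE), with an adjusted p of 0.0107. Every adjusted p below is from the quasi-likelihood F-test of edgeR, adjusted by Benjamini-Hochberg over all 12093 genes tested. The Kdm5 call was lost without JmjC 1 (adjusted p = 0.0682), JmjC 2 (0.0822) or L854F 3 (0.0513) and with library size as the only scaling (0.174). lncRNA:roX1 (roX1), the partner of roX2, measured 278, 278 and 337 CPM in JmjC heads, against 219, 181 and 199 CPM in A224T, 86.0, 90.5 and 95.2 CPM in L854F and 13.6, 13.9 and 12.6 CPM in WT. Its adjusted p was 0.431 with the 5 WT libraries as 1 group and 1.06e-06 with them as 2 groups (log2 fold 1.15 ± 0.89 with 1 group).

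Between JmjC and the mean of A224T and L854F, 1009 of 12093 tested genes were higher (8.34%) and 1111 lower (9.19%) at an adjusted p under 0.05. These were mostly moderate differences, with a median absolute log2 fold of 0.42 among the 2120 called genes. A difference of 2-fold or more was reached by 161 genes that were higher and 102 that were lower. Every JmjC library lay above every missense library at 1397 genes (11.6%) and below at 1620 genes (13.4%), and 1695 of the called genes had no such overlap. Taken against 1 missense strain at a time, 372 genes were higher (3.08%) and 336 lower (2.78%) than in A224T, while 1178 were higher (9.74%) and 1355 lower (11.2%) than in L854F. Against both strains singly, 307 genes were higher (2.54%) and 272 lower (2.25%), and both comparisons share the JmjC libraries. A224T and L854F themselves differed at 412 genes (3.41%). Scaling by library size alone gave a split against the mean of 1667 higher and 574 lower, and the median log2 fold of all genes was 0.071 in place of -0.022. Of the calls, 459 higher and 445 lower ones remained when each of the 9 libraries was left out in turn. Without JmjC 2 there were 518 and 546 calls, and without JmjC 1 there were 571 lower calls. Against A224T alone the lower calls numbered 90 without JmjC 2, 107 without JmjC 1, 111 without A224T 2, 180 without A224T 1, 211 without A224T 3 and 215 without JmjC 3. The higher calls against A224T numbered 124 without JmjC 2, 146 without A224T 2 and 233 without JmjC 1. Against L854F there were 715 higher calls without JmjC 2 and 895 lower calls without L854F 3.

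The genes furthest above the missense strains included secreted immune factors, cytochrome P450 enzymes and a digestive enzyme. edin (3L 17494880 to 17495300), which encodes a small secreted protein induced by infection, measured 28.7, 127 and 2.34 CPM in JmjC heads, against 0.0474, 0.147 and 0.0944 CPM in A224T and 1.36, 0 and 0 CPM in L854F. The JmjC libraries differed widely from one another yet each lay above all 6 missense libraries. The fitted log2 fold was 7.94 ± 0.97 (adjusted p = 3.92e-05) and rests on few counts in the missense heads. PGRP-SC2 (2R 8716950 to 8717695), a secreted amidase that cleaves bacterial peptidoglycan, measured 36, 68.2 and 3.75 CPM in JmjC heads, against 0.379, 0.0977 and 0.142 CPM in A224T and 2.97, 0.210 and 0.194 CPM in L854F. IBIN (2R 17671068 to 17671295), an infection-induced micropeptide gene, had 21.9, 38.3 and 13.5 CPM in JmjC heads, at most 0.708 CPM in A224T and at most 7.51 CPM in L854F. For these 3 genes JmjC 3 was the lowest JmjC library and L854F 1 the highest missense library.

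Among the metabolic genes of this group, Cyp304a1 (3R 12963791 to 12965923), a cytochrome P450 gene, measured 10.8, 20 and 8.96 CPM in JmjC heads, against 0.900, 0.391 and 0.850 CPM in A224T, 0.417, 0.473 and 0.0970 CPM in L854F and 2.45, 2.02 and 1.21 CPM in WT. It was higher in JmjC by a log2 fold of 4.76 ± 0.47 (adjusted p = 2.78e-06), with no overlap. Fad2 (3L 11023535 to 11024846), a fatty acid desaturase used in the synthesis of cuticular pheromones, had 13, 18.4 and 6.74 CPM in JmjC heads, against 0.0526 to 3.03 CPM over the 6 missense heads (log2 fold 4.31 ± 0.76, adjusted p = 0.000824). Amy-p (2R 17118636 to 17120303), a digestive amylase whose reads can be split with its near-identical copy Amy-d, had 40.6, 58.3 and 45.1 CPM in JmjC heads, against 13.6, 8.70 and 13.5 CPM in A224T, 10.7, 8.41 and 8.92 CPM in L854F and 6.28, 8.25 and 5.31 CPM in WT. The difference for Amy-p was 4.54-fold, and A224T and L854F overlapped.

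Smaller spreads marked spz4 and mah. spz4 (2L 11501715 to 11508649), which encodes a secreted protein of the Spätzle family, measured 6.95, 8.16 and 7.50 CPM in JmjC heads, against 1.04, 1.37 and 0.897 CPM in A224T, 0.887, 0.420 and 0.436 CPM in L854F and 0.179, 0.601 and 0.543 CPM in WT. Its log2 fold was 3.23 ± 0.35 (adjusted p = 6.4e-06). mah (3R 24947632 to 24949539) had 18.2, 14.4 and 13.5 CPM in JmjC heads, against 4.83, 2.20 and 2.74 CPM in A224T and 0.835, 0.578 and 0.485 CPM in L854F (log2 fold 3.41 ± 0.31, adjusted p = 1.54e-06). The 3 strains did not overlap for mah. The other genes of this group were Srg3 (log2 fold 4.41), CG43064 (2.87), the P450 gene Cyp309a1 (2.59) and Mec2 (2.19).

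**Figure D1:**
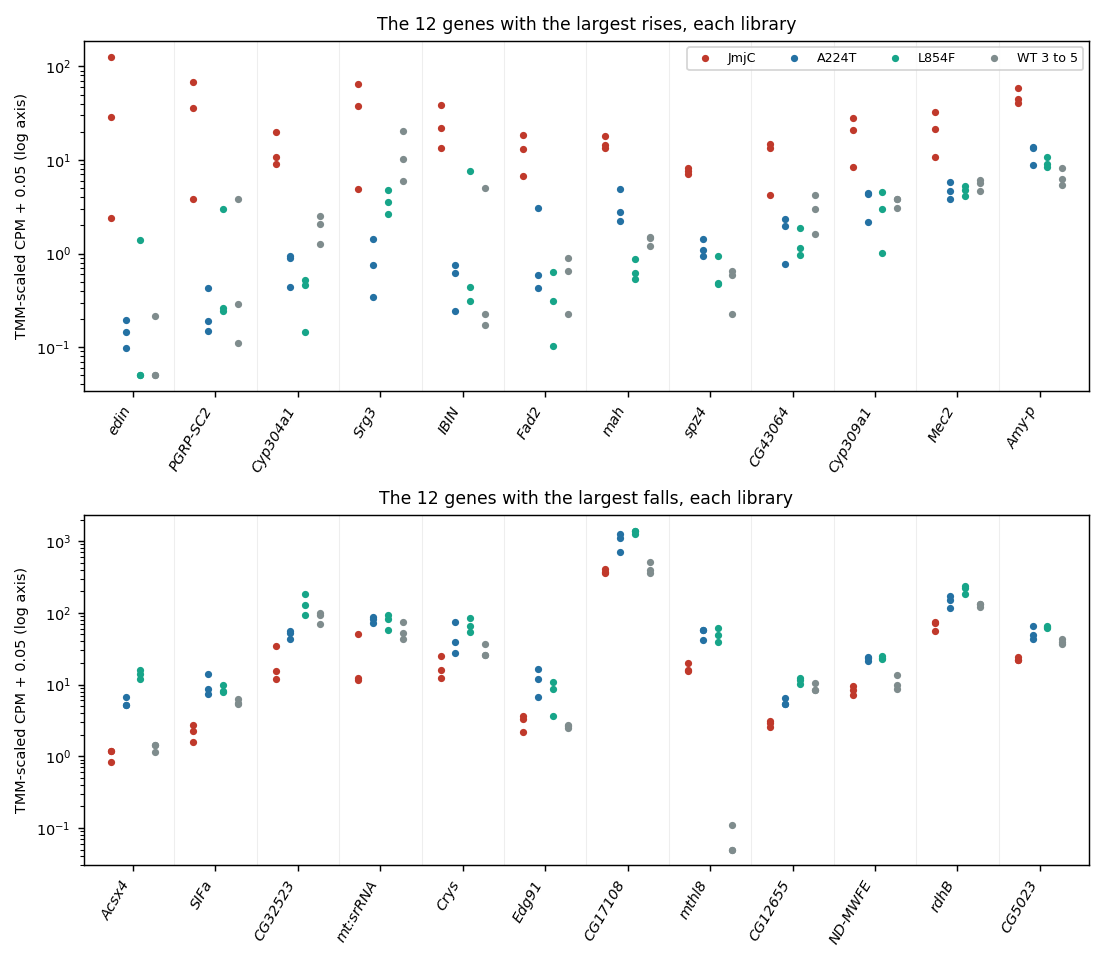
TMM-scaled CPM plus 0.05 on a log axis for the 12 genes with the largest rises (top) and the 12 with the largest falls (bottom), 1 point per library, for JmjC, A224T, L854F and WT 3 to 5. The genes were drawn because their JmjC libraries do not overlap the missense libraries; the edin and PGRP-SC2 points of JmjC spread most, from 2.34 to 127 CPM and from 3.75 to 68.2 CPM, and the WT points of Acsx4, Edg91 and CG17108 lie near those of JmjC.

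The genes furthest below the missense strains included a neuropeptide, lens and cuticle proteins, a mitochondrial ribosomal RNA and enzymes of lipid and retinoid metabolism. SIFa (2R 24577566 to 24578143), a neuropeptide made by a small group of brain neurons, measured 1.52, 2.67 and 2.23 CPM in JmjC heads, against 8.67, 13.8 and 7.36 CPM in A224T, 9.91, 8.09 and 7.81 CPM in L854F and 6.33, 5.35 and 5.49 CPM in WT. JmjC was below every other library, by a log2 fold of -2.11 ± 0.28 against the missense mean (adjusted p = 4.53e-05). rdhB (3R 22351696 to 22356264), a retinol dehydrogenase of visual chromophore synthesis, had 73.8, 72.6 and 55.0 CPM in JmjC heads, against 149, 174 and 117 CPM in A224T, a mean of 214 ± 26.1 CPM (SD, n = 3) in L854F and 135, 122 and 132 CPM in WT (log2 fold -1.40 ± 0.11, adjusted p = 3.99e-07). Here too JmjC lay below all WT libraries. The mitochondrial small ribosomal RNA mt:srRNA had 50.8, 11.6 and 12.2 CPM in JmjC heads, against 57.9 to 93.3 CPM over the missense heads, and its call was lost without JmjC 2 (adjusted p = 0.0930) or JmjC 3 (0.0771).

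For several of these genes JmjC and WT had close levels and the missense strains stood above both. Acsx4 (3R 19783522 to 19785519), of the acyl-CoA synthetase family, measured 0.784, 1.14 and 1.14 CPM in JmjC heads, against 5.07, 5.18 and 6.56 CPM in A224T, 11.9, 13.8 and 15.7 CPM in L854F and 1.37, 1.37 and 1.09 CPM in WT. Against WT its log2 fold was -0.32 in JmjC (adjusted p = 0.65), 2.13 in A224T (0.00106) and 3.43 in L854F (1.89e-05). CG17108 measured 374, 362 and 410 CPM in JmjC heads, against 1093, 1260 and 698 CPM in A224T, 1391, 1395 and 1269 CPM in L854F and 402, 356 and 505 CPM in WT. JmjC overlapped WT, and both stayed below the 6 missense libraries. Edg91, a cuticle gene, had 2.12 to 3.55 CPM in JmjC heads, 3.64 to 16.6 CPM over the missense heads and 2.46 to 2.66 CPM in WT. ND-MWFE, a subunit of respiratory complex I, had 7.01 to 9.41 CPM in JmjC heads, 21.2 to 25.1 CPM over the missense heads and 8.52 to 13.5 CPM in WT. A different order held for mthl8 (3L 22428 to 26308), a methuselah-like receptor, with 19.9, 15.2 and 15.8 CPM in JmjC heads, against 39.1 to 62.1 CPM over the missense heads and at most 0.0598 CPM in WT. Crys (log2 fold -1.67), which encodes a protein of the corneal lens, CG32523 (4-fold lower), CG12655 (-1.52) and CG5023 (-1.36) completed the 12 largest falls. For 3 of them JmjC was also below WT, with log2 folds of -2.09 for CG32523 (adjusted p = 5.93e-05), -1.69 for CG12655 (1.28e-06) and -0.81 for CG5023 (0.000698). For Crys the fold against WT was -0.73 (0.0802).

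Neuropeptides are cut out of longer precursors, packed into dense core vesicles and released to act on receptors at a distance, and in the fly head they control feeding, sleep, mating and hormone release. Most of their precursor genes were lower in JmjC than in the missense heads. Of 50 precursor genes measured, 44 were tested; 25 were lower, 2 were higher and 17 did not pass, with a median log2 fold of -0.54. All genes tested had 9.19% lower, 8.34% higher and a median of -0.022. Against A224T and L854F singly, 16 precursors were lower in both, and 26 had every JmjC library below every missense library (background 13.4%). When each library was left out in turn, 21 to 24 were lower and 20 remained so throughout. RNA of whole heads cannot tell fewer cells of a type from less RNA per cell. The summed level of 5 neuron markers was 2846 to 3173 CPM in JmjC heads, 3102 to 3510 CPM in A224T and 3423 to 3916 CPM in L854F. Syx1A was the only marker called (log2 fold -0.45). Syt1 (-0.23), brp (-0.19) and nSyb (-0.14) were lower without being called against the mean, and elav, a protein of all neurons, was at 0.031. The part of neuron content in these results was not tested.

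The difference was steady from library to library for many precursors. AstC (2L 11076165 to 11081399), the precursor of allatostatin C, measured 23.3, 23.5 and 22.1 CPM in JmjC heads, against 39.3, 47.1 and 38.7 CPM in A224T, 68.3, 64.5 and 65.6 CPM in L854F and 66.4, 62.2 and 61.3 CPM in WT. The 3 strains formed separate levels, JmjC below A224T and A224T below L854F, and the log2 fold was -1.19 ± 0.073 (adjusted p = 8.85e-09). Ms (3R 24341551 to 24343825), the myosuppressin precursor, had 70.0, 66.8 and 80 CPM in JmjC heads, against 108, 113 and 105 CPM in A224T, 160, 131 and 138 CPM in L854F and 163, 151 and 132 CPM in WT. Proc (2L 7864642 to 7871432), the proctolin precursor, had 33.6, 32.3 and 36 CPM in JmjC heads, against 54.6, 57.7 and 56.9 CPM in A224T, 74.9, 67.3 and 78.3 CPM in L854F and 67.9, 64.9 and 61.5 CPM in WT. Both showed the same order of strains. Their log2 folds were -0.79 ± 0.077 (adjusted p = 2.78e-06) and -0.92 ± 0.092 (3.5e-06).

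Precursors with roles in sleep, rhythm and feeding followed. Dh44 (3R 9638182 to 9650706), a diuretic hormone of the brain that also carries clock output, had 39.3, 40.6 and 42.5 CPM in JmjC heads, against 49.1, 57.5 and 46.1 CPM in A224T and 82.6, 80.8 and 98.6 CPM in L854F. Pdf (3R 26455462 to 26456141), the peptide of the clock neurons, had 14.2, 13.8 and 14.8 CPM in JmjC heads, against 19.0, 24.2 and 20.5 CPM in A224T and 41.0, 36.3 and 34.7 CPM in L854F. Pdf was called against the mean (log2 fold -0.98, adjusted p = 0.000984) and against L854F (-1.39, 9.31e-05), while against A224T its fold of -0.57 did not pass (0.109). Dsk, the drosulfakinin precursor that acts in satiety, had 13.4, 12.4 and 14.1 CPM in JmjC heads, against 29.0, 24.5 and 19.7 CPM in A224T and 49.0, 39.2 and 39.0 CPM in L854F. sNPF and NPF, which promote feeding, had log2 folds of -0.60 ± 0.080 and -0.93 ± 0.16, and both were called against each missense strain. AstA (-1.10), Dh31 (-0.79), Tk (-0.73), Orcokinin (-0.99), Trissin, Nplp1 (-0.53) and Nplp3 (-1.15) were likewise lower against both. Mip (-1.03), natalisin (-0.73), ITP (-0.43) and FMRFa (-0.45) were called against L854F but not against A224T alone. The calls of FMRFa, spab (-0.43), Hug (-0.55), Ilp2 and Ilp5 each ended when at least 1 library was left out.

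Insulin-like peptides of the brain and fat body did not move as 1 group. Ilp3 (3L 9801298 to 9802120), made by the insulin-producing cells of the brain, measured 10.2, 13 and 11.8 CPM in JmjC heads, against 26.6, 24.4 and 22.0 CPM in A224T, 31.0, 30 and 27.1 CPM in L854F and 14.9, 12.7 and 13.2 CPM in WT. Its JmjC level overlapped WT, and its log2 fold against the missense mean was -1.19 ± 0.13 (adjusted p = 6.75e-06). Ilp2 and Ilp5, from the same cells, had log2 folds of -0.41 (adjusted p = 0.0257) and -0.74 (0.0363). Ilp6, which is made in fat body, had 82.0, 84.1 and 91.3 CPM in JmjC heads, against 75.0, 68.9 and 87.3 CPM in A224T and 40.4, 38.7 and 45.8 CPM in L854F. JmjC overlapped A224T and lay above L854F, so its log2 fold of 0.60 (adjusted p = 0.0318) came from L854F alone, at 1.04 against 0.15 for A224T. CCHa2, a nutrient-dependent peptide of fat body and gut, had 156, 136 and 103 CPM in JmjC heads, against 94.1, 71.2 and 95.2 CPM in A224T and 83.4, 88.3 and 61.2 CPM in L854F (log2 fold 0.68, adjusted p = 0.0104). The call of CCHa2 was lost without JmjC 1 (adjusted p = 0.0730) or JmjC 2 (0.0524), and that of Ilp6 without JmjC 1, 2 or 3, A224T 2, or L854F 1 or 2 (0.0556 to 0.113).

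**Figure D2:**
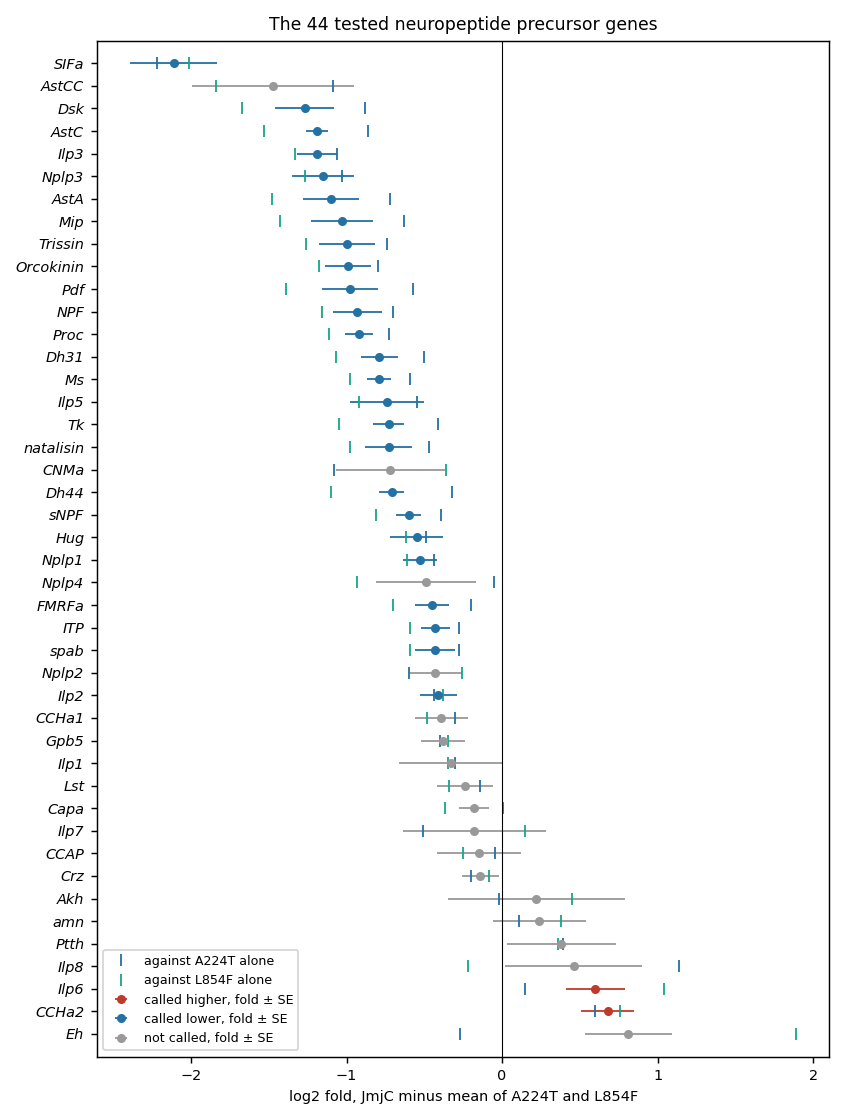
Log2 fold of JmjC minus the mean of A224T and L854F with its standard error for each of the 44 tested neuropeptide precursor genes, with ticks for the fold against A224T alone and L854F alone. Of these, 25 are called lower and 2 higher, and for AstC the tick against L854F (-1.53) lies further from 0 than the tick against A224T (-0.86).

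The levels beside WT differed by strain. The median log2 fold of the precursors against WT 3 to 5 was -0.59 in JmjC heads, -0.22 in A224T and 0.081 in L854F, and these comparisons share the WT libraries. For AstC the folds were -1.46 in JmjC, -0.60 in A224T and 0.06 in L854F. For Tk, the tachykinin precursor, they were -1.21, -0.80 and -0.16 in the same order.

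Of 15 tested genes for processing and release of neuropeptides, 0 were higher and 4 were lower (26.7%, against 9.19% of all genes). These were amon, the prohormone convertase, Pal2, an enzyme of peptide amidation, Cadps, which primes dense core vesicles, and 7B2, the chaperone of the convertase. amon (3R 26697697 to 26714159) had 179, 173 and 194 CPM in JmjC heads, against a mean of 212 ± 10.3 CPM (SD, n = 3) in A224T, 247, 249 and 277 CPM in L854F and 255, 291 and 298 CPM in WT. JmjC was lowest, by a log2 fold of -0.36 ± 0.067 (adjusted p = 0.000961). Folds were -0.29 for Pal2 and for Cadps and -0.35 for 7B2. None of the 4 was called against A224T alone. The call of Cadps was lost without JmjC 2 (adjusted p = 0.0920) and 7B2 was the least stable, with adjusted p up to 0.124 on leaving out 1 library; the count of lower genes was 2 without JmjC 2.

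Receptors for neuropeptides and glycoprotein hormones included genes that moved both ways. Of 39 tested, 3 were higher (7.69%) and 10 lower (25.6%), against 8.34% and 9.19% of all genes. Their median log2 fold was -0.28. TkR99D (3R 29950796 to 29969447), a receptor for tachykinins, measured 44.2, 52.3 and 43.7 CPM in JmjC heads, against 15.5, 15.0 and 16 CPM in A224T, 16.1, 16.1 and 18.6 CPM in L854F and 14.2, 15.0 and 13.2 CPM in WT. It was 2.88-fold higher than in the missense heads (log2 fold 1.53 ± 0.10, adjusted p = 2.69e-08), and no other library came near the JmjC level. Lgr1 (3R 17725777 to 17733207), a glycoprotein hormone receptor, measured 51.9, 52.7 and 53.6 CPM in JmjC heads, against 28.5, 24.5 and 25.0 CPM in A224T, 28, 19.0 and 20.9 CPM in L854F and 29.3, 25.7 and 31.6 CPM in WT (log2 fold 1.12 ± 0.10, adjusted p = 1.54e-06). Both kept their calls with each library left out, whereas SIFaR, the SIFamide receptor (log2 fold 0.33, adjusted p = 0.0474), lost its call in 8 of the 9 fits that leave out a library.

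Those lower were led by CrzR, the corazonin receptor, with 18.2, 19.2 and 18 CPM in JmjC heads, against 23.6, 24.1 and 22.3 CPM in A224T and 33.4, 31.3 and 28.8 CPM in L854F (log2 fold -0.55 ± 0.067, adjusted p = 1.92e-05). Dh44-R1 (-0.40) and MsR1 (-0.39), receptors for Dh44 and myosuppressin, were also called against both missense strains. The call of MsR1 against the mean was lost without JmjC 1 (adjusted p = 0.0668). SPR, the sex peptide receptor, had 12.4, 12.8 and 16.1 CPM in JmjC heads, against 16.1, 15.4 and 13.7 CPM in A224T and 30.7, 27.9 and 30.2 CPM in L854F, so JmjC overlapped A224T and the call of -0.62 came from L854F. TrissinR (-0.51), AstC-R2 (-0.37), Dh31-R (-0.34), FMRFaR (-0.49), Proc-R (-0.24) and NPFR (-0.52) were the other lower receptors. Without JmjC 2 or without JmjC 3, 5 receptors were lower, and 4 of the 10 stayed lower with each library left out.

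Among genes of transmitter synthesis, transmitter receptors, synaptic vesicles and voltage-gated channels, the called genes were lower in JmjC, apart from 1 channel gene. Of 23 tested genes for synthesis and transport of transmitters, 14 were lower (60.9%, against 9.19% of all genes) and 0 higher (median log2 fold -0.33). With each library left out, 8 of the 14 stayed lower. Ddc (2L 19116483 to 19120306), which makes dopamine and serotonin, measured 179, 173 and 173 CPM in JmjC heads, against 248, 239 and 259 CPM in A224T, 290, 287 and 359 CPM in L854F and 249, 264 and 232 CPM in WT. Its JmjC libraries were below all others (log2 fold -0.67 ± 0.070, adjusted p = 5.16e-06). Gad1, which makes GABA, had 332, 307 and 343 CPM in JmjC heads, against 372, 408 and 380 CPM in A224T, 475, 486 and 545 CPM in L854F and 528, 548 and 556 CPM in WT. Gad1 was called against the mean (-0.43, adjusted p = 0.000308) but not against A224T alone (-0.24, 0.0807). Without JmjC 2, 8 genes of the list were lower.

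Of 49 tested transmitter receptors, 24 were lower (49%, against 9.19% of all genes) and 0 higher, with a median log2 fold of -0.27. By class, 7 of 12 acetylcholine receptors, 7 of 13 glutamate receptors, 8 of 16 amine receptors and 2 of 6 GABA receptors were lower. nAChRbeta1 (3L 4429349 to 4435993), a nicotinic acetylcholine receptor subunit, had 369, 344 and 383 CPM in JmjC heads, against 478, 511 and 479 CPM in A224T, 520, 517 and 625 CPM in L854F and 442, 493 and 510 CPM in WT (log2 fold -0.51 ± 0.076, adjusted p = 0.000144). Grik, a kainate-type glutamate receptor, had 20.2, 19.6 and 23.2 CPM in JmjC heads, against 27.2, 29.0 and 28.8 CPM in A224T, 38.6, 39.2 and 40.2 CPM in L854F and 14.3, 14.7 and 14.7 CPM in WT. For Grik all 3 strains lay above WT, with JmjC the nearest. Leaving out JmjC 1 or JmjC 2 left 13 or 9 lower receptors, and 9 stayed lower throughout.

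Of 30 tested genes of synaptic vesicles and active zones, 12 were lower (40%, against 9.19% of all genes) and 0 higher (median -0.21). Snap25 (3L 24074180 to 24299205), a SNARE protein of vesicle fusion, had a mean of 244 ± 19.1 CPM (SD, n = 3) in JmjC heads, against 295, 347 and 285 CPM in A224T, 390, 376 and 385 CPM in L854F and 398, 408 and 394 CPM in WT (log2 fold -0.50 ± 0.086, adjusted p = 0.000518). VGAT, the vesicular GABA transporter, had a log2 fold of -0.41 ± 0.073 (adjusted p = 0.000744). The counts were 7 without JmjC 1 and 5 without JmjC 2, and 5 genes stayed lower throughout. Of 23 voltage-gated channel genes, 9 were lower (39.1%) and 1 higher (4.35%), against 9.19% and 8.34% of all genes. Hk, a subunit of Shaker potassium channels (-0.44), and tipE, a sodium channel subunit (-0.36), were lower, and Irk1, an inward rectifier potassium channel, was higher (0.49, adjusted p = 0.0447). The call of Irk1 ended in each of the 9 fits that leave out a library, and the lower channels numbered 3 without JmjC 1 or JmjC 2 and 4 without A224T 1 or L854F 3. Library size as the only scaling left 5 lower vesicle genes, 7 lower receptors and 3 lower channels.

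**Figure D3:**
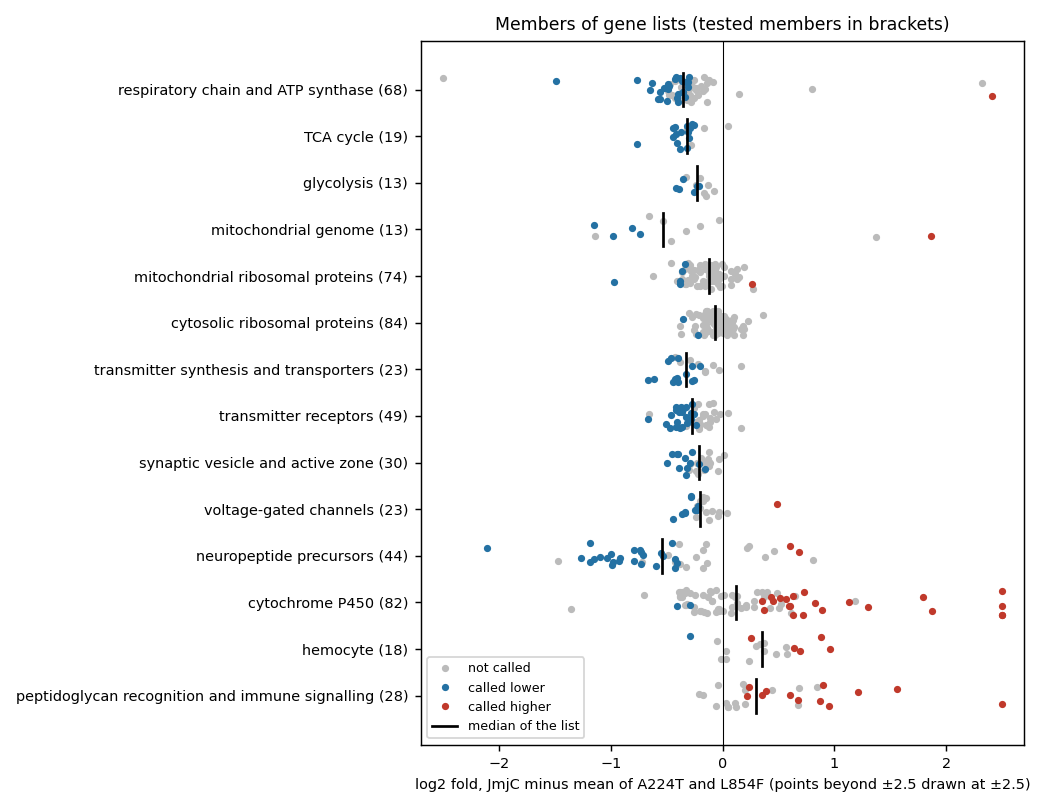
Log2 folds of the tested members of 14 gene lists, coloured by call, with the median of each list as a bar and points beyond the axis drawn at its edge. Members of the transmitter and energy metabolism lists lie mostly below 0, whereas neuropeptide precursors reach -2.11 and cytochrome P450 genes spread to both sides.

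Of 77 nuclear genes of the respiratory chain and ATP synthase measured, 68 were tested, with a median log2 fold of -0.35. Of these, 26 were lower (38.2%), 1 was higher (1.47%) and 41 did not pass, against 9.19% lower and 8.34% higher of all genes. In 57 of the 68 every JmjC library lay below every missense library (background 13.4%). By complex, 10 of 28 genes of complex I, 3 of 4 of complex II, 2 of 9 of complex III, 3 of 11 of complex IV and 8 of 16 of the ATP synthase were lower. ND-49 (4 568296 to 571554), a core subunit of complex I, had 208, 203 and 203 CPM in JmjC heads, against 251, 301 and 254 CPM in A224T, 283, 284 and 279 CPM in L854F and 296, 269 and 263 CPM in WT. JmjC was below every other library for ND-49 (log2 fold -0.43 ± 0.057, adjusted p = 5.59e-05). ATPsynC (3R 31216145 to 31219630), the proton-carrying ring subunit of the ATP synthase, had 1150, 1261 and 1163 CPM in JmjC heads, against 1346, 1755 and 1386 CPM in A224T, 1628, 1632 and 1579 CPM in L854F and 1682, 1527 and 1548 CPM in WT (log2 fold -0.38 ± 0.077, adjusted p = 0.0019). COX7AL, a complex IV subunit gene of low level, was higher at 1.25, 1.20 and 1.03 CPM in JmjC heads against at most 0.426 CPM in the missense heads (adjusted p = 0.0417), and its call ended in 8 of the 9 fits that leave out a library.

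How many of these genes passed depended on the fit. With the 9 libraries alone, 53 were lower, and with WT as 2 groups 50 were. Without JmjC 1 there were 11, and without JmjC 3 there were 17. Library size as the only scaling gave 14. The median against WT 3 to 5 was -0.28 in JmjC heads, 0.084 in A224T and 0.092 in L854F, with the WT libraries shared.

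The TCA cycle with pyruvate dehydrogenase had the highest share of lower genes among the 39 lists. Here 15 of 19 tested were lower (78.9%, against 9.19% of all genes) and 0 higher, at a median log2 fold of -0.32. This list and the respiratory chain list share genes of complex II, SdhA and SdhB among them. muc (2L 7426866 to 7430329), the acetyltransferase subunit of pyruvate dehydrogenase, had 208, 230 and 232 CPM in JmjC heads, against 261, 323 and 264 CPM in A224T, 322, 338 and 319 CPM in L854F and 334, 311 and 344 CPM in WT. Pdha, the E1 subunit of the same complex, had 240, 263 and 255 CPM in JmjC heads, against 292, 340 and 293 CPM in A224T, 347, 364 and 330 CPM in L854F and 322, 298 and 314 CPM in WT. For both genes JmjC lay below all other libraries, with log2 folds of -0.44 ± 0.068 (adjusted p = 0.000195) and -0.38 ± 0.060 (0.000277). In glycolysis 6 of 13 were lower (46.2%, against 9.19% of all genes) and 0 higher (median -0.23). The lower ones were led by Pfk, the phosphofructokinase, at -0.39 ± 0.057 (adjusted p = 0.000103) and Pglym78, a phosphoglycerate mutase, at -0.35. Without JmjC 1 the lower genes numbered 7 in the TCA cycle and 3 in glycolysis, and without JmjC 3 there were 3 in glycolysis. Library size as the only scaling left 7 in the TCA cycle.

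Transcripts of the mitochondrial genome were uneven among the JmjC libraries. mt:ATPase6, an ATP synthase subunit, measured 1399, 698 and 658 CPM in JmjC heads, against 1828, 2230 and 1992 CPM in A224T, 2234, 2277 and 1681 CPM in L854F and 2108, 1667 and 1455 CPM in WT (log2 fold -1.15 ± 0.23, adjusted p = 0.00148). JmjC 1 lay between the other JmjC libraries and the missense heads. mt:ND4, of complex I, showed the same library order within JmjC, at 607, 258 and 226 CPM, against 557 to 871 CPM over the missense heads. mt:Cyt-b (-0.74) and mt:ND1 (-0.81), of complexes III and I, were the other lower transcripts and overlapped. Of 13 tested, 4 were lower (30.8%) and 1 higher (7.69%), against 9.19% and 8.34% of all genes (median -0.53). Without JmjC 1 there were 7 lower, without JmjC 2 or JmjC 3 there was 1. The higher one, mt:ND6, had 2.40, 3.26 and 4.18 CPM in JmjC heads, against 0.900, 1.27 and 0.755 CPM in A224T, 0.574, 0.893 and 1.02 CPM in L854F and 3.59, 2.46 and 2.47 CPM in WT. JmjC overlapped WT for mt:ND6 and lay above the missense heads (log2 fold 1.86 ± 0.33, adjusted p = 0.000679). The strand option of the counting is not given, so mt:ND6 reads cannot be told apart from antisense reads.

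Few ribosomal protein genes passed the test between JmjC and the missense strains. Of 84 tested cytosolic ribosomal protein genes, 2 were lower (2.38%, against 9.19% of all genes) and 0 higher. The median log2 fold was -0.065, and 0.029 with library size as the only scaling. RpS2 measured 474, 524 and 498 CPM in JmjC heads, against a mean of 606 ± 31.6 CPM (SD, n = 3) in A224T, 744, 690 and 571 CPM in L854F and 891, 766 and 657 CPM in WT (log2 fold -0.35, adjusted p = 0.0152). RpS13 was called at -0.22 (adjusted p = 0.0441), and overlapped. The call of RpS2 ended without JmjC 1 (adjusted p = 0.105), and that of RpS13 ended in 7 of the 9 fits that leave out a library. Against WT 3 to 5 the list medians were -0.44 in JmjC heads, -0.38 in A224T and -0.35 in L854F, with the WT libraries shared. Of 74 mitochondrial ribosomal protein genes, 5 were lower (6.76%) and 1 higher (1.35%), both below the shares of all genes (median -0.12). With the 9 libraries alone 17 were lower. mRpS33 (-0.97 ± 0.21) kept its call with each library left out. mRpL24 (-0.38), mRpL35 (-0.36), mRpL52 (-0.38), mRpS31 (-0.34) and the higher mRpL39 (0.26) each lost it in at least 1 of these fits, which left 1 to 4 lower genes. Translation factors had 4 higher (7.41%) and 3 lower (5.56%) of 54, both below the shares of all genes (8.34% and 9.19%). Among them eIF2Bepsilon (0.52) and eIF2D (0.51), which act in initiation, were higher, as were eIF2A (0.51) and eIF3a (0.26). eIF4EHP (-0.66), a cap-binding repressor, eEF1delta (-0.43), an elongation factor subunit, and eIF4E1 (-0.20), the cap-binding factor, were lower, and only eIF4EHP stayed lower without JmjC 1, 2 or 3. In ribosome biogenesis Mat89Ba (0.62) was higher and Fib, the fibrillarin gene (-0.45), lower, of 37. This is 2.7% each way, below the shares of all genes. The call of Mat89Ba was lost without JmjC 3 (adjusted p = 0.0800) and that of Fib in 8 of the 9 fits that leave out a library (up to 0.222). Of 32 proteasome genes none passed either way in edgeR while 7 were higher with the 9 libraries alone.

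Insects answer bacteria through the Imd pathway, in which peptidoglycan recognition proteins signal to the NF-kB factor Relish, and fungi and other bacteria through the Toll pathway, and both end in small secreted peptides made mainly by fat body. Of 37 tested effector genes, 19 were higher (51.4%, against 8.34% of all genes) and 0 lower in JmjC, with a median log2 fold of 0.92. By class, 11 of 12 Imd-type and 7 of 23 Toll-type peptide genes were higher. These calls rest on uneven libraries. AttA (2R 14747362 to 14748215), the antibacterial attacin A whose reads can be split with AttB, measured 48.9, 133 and 11 CPM in JmjC heads, against 2.23, 1.95 and 0.944 CPM in A224T, 37.4, 3.00 and 3.69 CPM in L854F and 3.88, 5.19 and 0.664 CPM in WT. Its JmjC range ran over L854F 1, and it was called against A224T (log2 fold 5.23, adjusted p = 0.00369) and not against L854F (2.14, 0.0712).

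Every JmjC library lay above every missense library in 1 of the 12 Imd-type genes, edin, and in 8 of the 23 Toll-type genes, against 11.6% of all genes. In all 12 Imd-type genes JmjC 3 was the lowest JmjC library and L854F 1 the highest missense library, as DptA, named here after its values were seen, shows with 478, 918 and 49.9 CPM in JmjC heads, against 3.41, 0.293 and 1.42 CPM in A224T and 106, 0.998 and 1.02 CPM in L854F. The antifungal peptide gene Drs, also named after its values were seen, had 131, 47.9 and 155 CPM in JmjC heads, against 12.3 to 24.9 CPM over the missense heads and 13.7, 119 and 7.42 CPM in WT. There JmjC 2 was the lowest JmjC library, and WT 4 reached the JmjC range. Without JmjC 2, 11 effector genes were higher, and 8 of the 19 remained higher with each library left out.

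**Figure D4:**
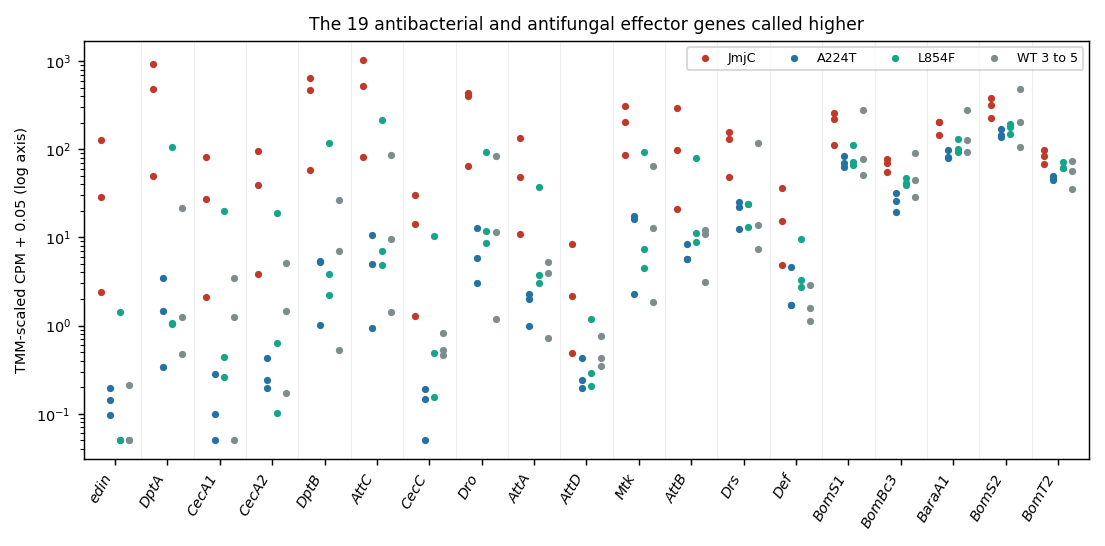
TMM-scaled CPM plus 0.05 on a log axis for the 19 effector genes called higher, 1 point per library, for JmjC, A224T, L854F and WT 3 to 5. One L854F point and one WT point stand above the others of their strain in many genes, such as DptA with 106 CPM in L854F 1 and 21.6 CPM in WT 4.

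Upstream genes of the same defence had smaller folds. Of 28 tested genes of peptidoglycan recognition and immune signalling, 12 were higher (42.9%, against 8.34% of all genes) and 0 lower (median 0.29). Rel (3R 9044183 to 9047977), which encodes Relish, measured 286, 322 and 223 CPM in JmjC heads, against 155, 156 and 167 CPM in A224T, 139, 142 and 154 CPM in L854F and 183, 220 and 177 CPM in WT. All JmjC libraries lay above the others, by a log2 fold of 0.87 ± 0.093 against the missense mean (adjusted p = 6.4e-06). Tep2 (2L 7693727 to 7701601), a thioester protein that binds microbes, measured 478, 476 and 364 CPM in JmjC heads, against 297, 198 and 266 CPM in A224T, 317, 327 and 253 CPM in L854F and 242, 263 and 218 CPM in WT (log2 fold 0.67 ± 0.11, adjusted p = 0.000385). Without JmjC 2, 6 genes of this list were higher, and 6 of the 12 stayed higher throughout.

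Hemocyte genes, which mark the phagocytic blood cells, had 5 higher (27.8%) and 1 lower (5.56%) of 18, at a median log2 fold of 0.35. The shares of all genes were 8.34% and 9.19%. NimB2, a secreted protein of the Nimrod family, had 231, 249 and 193 CPM in JmjC heads, against 147, 120 and 143 CPM in A224T, 152, 148 and 125 CPM in L854F and 216, 204 and 184 CPM in WT. JmjC overlapped WT here and lay above all missense libraries (log2 fold 0.69 ± 0.11, adjusted p = 0.000355). NimB4, of the same family, was higher by 0.96 ± 0.21 (adjusted p = 0.00299). The other higher genes, named because the count is small, were NimB1 (0.64), the scavenger receptors crq (0.25) and eater (0.88), and lz, a factor of crystal cells, was lower (-0.29, adjusted p = 0.0430). The lz call was lost in 7 of the 9 fits that leave out a library (adjusted p up to 0.182) and with library size as the only scaling (0.223), and that of eater in at least 1 such fit. The summed level of the 18 markers was 3124 to 3511 CPM in JmjC heads, 2855 to 3121 CPM in A224T and 2636 to 2663 CPM in L854F. The part of blood cell content in the immune results was not tested.

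Cytochrome P450 enzymes oxidise toxins, hormones and lipids. Of 82 tested P450 genes, 22 were higher (26.8%) and 2 lower (2.44%), against 8.34% and 9.19% of all genes. The other 58 did not pass, and the median log2 fold was 0.12. Of the 22, 16 kept their calls with each library left out. Cyp12c1 (3L 18684259 to 18686319), a mitochondrial P450, measured 28.8, 36.1 and 21.9 CPM in JmjC heads, against 17.1, 12.1 and 19.8 CPM in A224T, 4.49, 4.36 and 3.98 CPM in L854F and 6.87, 7.05 and 5.98 CPM in WT. JmjC, A224T and L854F did not overlap, and the log2 fold was 1.79 ± 0.17 (adjusted p = 2.32e-06). The lower genes were Cyp4c3 (-0.41) and Cyp6a20 (-0.29), and both lost their calls without JmjC 1 or JmjC 2. In other detoxification families, of 33 glutathione S-transferases 5 were lower (15.2%) and 0 higher. The lower ones were led by GstE3 (-0.64) and GstE2 (-0.45) with GstE5 (-0.42), GstE14 (-0.35) and GstD1 (-0.31). Of 23 UDP-glycosyltransferases 3 were lower (13%) and 1 higher (4.35%). Ugt35B1 had 133, 114 and 168 CPM in JmjC heads, against 250, 327 and 231 CPM in A224T, 394, 358 and 370 CPM in L854F and 254, 240 and 284 CPM in WT (log2 fold -1.20 ± 0.17, adjusted p = 8.93e-05), its neighbour Ugt35E2 was lower by 1.25 on the log2 scale and Ugt36E1 was higher by 0.89. GST medians were -0.089 here and 0.0047 with library size as the only scaling, those of the UDP-glycosyltransferases -0.062 and 0.033. Lower GST genes numbered 2 when JmjC 1, 2 or 3, A224T 1 or 2, or L854F 1 was left out, and 3 without A224T 3 or L854F 2.

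Redox and chaperone genes contained single clear differences. MsrA (3L 15511052 to 15513202), which repairs oxidised methionine, measured 32.9, 30.8 and 33.4 CPM in JmjC heads, against 50.2, 47.8 and 57.5 CPM in A224T, 100, 77.5 and 79.6 CPM in L854F and 81.8, 55.4 and 48.6 CPM in WT. JmjC was below every other library (log2 fold -1.04 ± 0.13, adjusted p = 2.27e-05). Prx3, a mitochondrial peroxiredoxin, was lower (-0.39), as was Sod2, the mitochondrial superoxide dismutase (-0.41), and cnc, a regulator of antioxidant genes, was higher (0.22). The call of Sod2 was lost in at least 1 fit that leaves out a library. The redox list had 1 higher (5%) and 3 lower (15%) of 20, against 8.34% and 9.19% of all genes. Of 26 heat shock and chaperone genes, 2 were lower (7.69%, below the 9.19% of all genes), Hsc70-1 (-0.81) and Hsp70Bc (-0.59). Hsp70Bc has near-identical copies and was not called without JmjC 1 (adjusted p = 0.0692) or JmjC 2 (0.0576). Of 21 genes of the unfolded protein and integrated stress responses, 4 were higher (19%, against 8.34% of all genes). Edem1 (X 1903704 to 1908827), a lectin of protein quality control in the endoplasmic reticulum, had 122, 113 and 107 CPM in JmjC heads, against 85.5, 75.9 and 77.7 CPM in A224T, 73.5, 71.0 and 73.0 CPM in L854F and 77.7, 79.0 and 80.5 CPM in WT (log2 fold 0.59 ± 0.060, adjusted p = 4.44e-06). Xbp1, the transcription factor of the unfolded protein response, was higher by 0.35 ± 0.079 (adjusted p = 0.00387). The remaining 2, named because the count is small, were crc (0.27) and puc (0.34), and both lost their calls when 1 library was left out.

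Digestive enzymes, a check on gut carried along with heads, had 6 higher (17.6%, against 8.34% of all genes) and 0 lower of 34 tested. Their median log2 fold of 1.32 was 0.44 without JmjC 2. The median deviation in log2(CPM + 1) from each gene's missense mean was 0.29, 1 and -0.035 in JmjC 1, 2 and 3. It was -0.19 to 0.15 in A224T and -0.073 to 0.13 in L854F. Some members had a count of 0 in at least 1 library. Amy-d had 79.7, 106 and 88.2 CPM in JmjC heads, against 32.8, 16.1 and 28.9 CPM in A224T, 24, 21.3 and 25.5 CPM in L854F and 16.8, 18.8 and 13.2 CPM in WT (log2 fold 1.89 ± 0.23, adjusted p = 1.75e-05). Mal-B2, a maltase, had 336, 376 and 297 CPM in JmjC heads, against 217, 167 and 229 CPM in A224T and 166, 163 and 169 CPM in L854F (log2 fold 0.87 ± 0.096, adjusted p = 7.53e-06). Neither overlapped. The list summed to 1060 to 1453 CPM in JmjC heads, 806 to 944 CPM in A224T and 866 to 963 CPM in L854F, and the part of gut tissue in the results was not tested.

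In phototransduction 5 of 38 genes were higher and 5 lower, 13.2% each way against 8.34% and 9.19% of all genes (median -0.027). Calx, the sodium and calcium exchanger of photoreceptors, had 340, 320 and 364 CPM in JmjC heads, against 421, 474 and 390 CPM in A224T and 474, 504 and 565 CPM in L854F (log2 fold -0.46 ± 0.074, adjusted p = 0.000299), and ninaB, which makes retinal from carotenoids, was lower by a log2 fold of -0.50. Galphaq (-0.24), the G protein of the cascade, inaE (-0.24) and pinta (-0.33) were also lower. The opsins Rh6 (0.30) and Rh7 (0.48) and the channel trpl (0.23) were higher. The calls of inaE, pinta, Rh6, Rh7 and trpl each ended in at least 1 fit that leaves out a library. inaF-C (0.64) and inaF-B (0.38), whose genes overlap on X so that their reads are uncertain, were higher than in A224T and not called against L854F. The calls of this list moved by over 1.5 times in several fits: without JmjC 2 there were 2 higher and 3 lower, without JmjC 1 there were 3 and 3, and the median changed sign in both. Of 21 eye pigment genes 4 were higher (19%) and 3 lower (14.3%). cd, which acts in ommochrome synthesis (3R 22694959 to 22697990), had 8.36, 8 and 6.63 CPM in JmjC heads, against 17.2, 16.5 and 19.7 CPM in A224T, 20.4, 20.7 and 19.8 CPM in L854F and 20.2, 20.9 and 18.5 CPM in WT. JmjC stood 2.48-fold below the missense mean and below WT (log2 fold -1.31 ± 0.21, adjusted p = 0.000299). rb (0.23), Hn (0.43), p (0.16) and ry (0.45) were higher, and or (-0.27) and w (-0.19), the white transporter, lower. Without JmjC 1 or JmjC 2 there was 1 higher and 1 lower pigment gene, and without JmjC 3 there was 1 lower.

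Clock, insulin and lipid genes were called at shares near or above those of all genes (8.34% higher, 9.19% lower). Of 16 clock genes vri (0.65) was higher and qsm (-0.45) and nmo (-0.30) lower, and vri and nmo lost their calls without JmjC 1. vri, a repressor whose level cycles through the day, had 85.6, 83.2 and 62.7 CPM in JmjC heads, against 47.9, 54.6 and 64.6 CPM in A224T, 37.9, 45.4 and 46.9 CPM in L854F and 126, 142 and 51.8 CPM in WT, so WT itself spread widely. Of 25 insulin and TOR genes 4 were higher and 3 lower; gig, the TSC2 gene, was higher by 0.35 ± 0.065 (adjusted p = 0.000932), raptor by 0.27 and InR, the insulin receptor, by 0.52. The other calls of that list were the insulin-like peptides Ilp2, Ilp3, Ilp5 and Ilp6 described above. Of 30 lipid and fat body genes 3 were higher and 3 lower. SREBP, which activates fatty acid synthesis, had 436, 457 and 421 CPM in JmjC heads, against 378, 357 and 377 CPM in A224T and 355, 350 and 357 CPM in L854F (log2 fold 0.27 ± 0.058, adjusted p = 0.00271). bmm, a lipase of lipid droplets, was higher (0.33), and to, a feeding-related gene of fat body, was lower (-1.25 ± 0.21, adjusted p = 0.000475), as were the elongases bond (-0.33) and Elovl7 (-0.45). The elongase gene eloF, which acts in female pheromone synthesis, was higher (2.44, adjusted p = 0.0186), and its call ended in at least 1 fit that leaves out a library. The call of bmm was lost without JmjC 2 (adjusted p = 0.159) or JmjC 3 (0.0503), that of bond without JmjC 1 (0.0599) and that of raptor without JmjC 3 (0.0559). The medians of the clock, lipid and fat body, phototransduction, translation factor and sex determination lists changed sign with library size as the only scaling.

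Of 62 tested cuticle genes 10 were lower (16.1%) and 2 higher (3.23%), against 9.19% and 8.34% of all genes. TwdlG had 10.8, 8.76 and 8.69 CPM in JmjC heads, against 12.8, 11.5 and 12.7 CPM in A224T and 26.1, 26.2 and 31.6 CPM in L854F (log2 fold -0.98 ± 0.096, adjusted p = 2.8e-06), and Cpr73D was lower (-0.45). Cpr66D (0.87) and Cpr76Bd (1.00) were higher than in L854F and overlapped A224T. The lower cuticle genes numbered 4 without JmjC 1 and 6 without JmjC 2. Of 117 odorant-binding and chemoreceptor genes 8 were lower (6.84%) and 4 higher (3.42%). Both were below the shares of all genes in that fit, which holds the 5 WT libraries as 1 group. With the 9 libraries alone 34 of the list were lower and 11 higher, and of all genes 1828 were lower and 1825 higher. Every JmjC library lay below every missense library in 23 of the 117 (background 13.4%) and above in 6 (background 11.6%). The median log2 fold of the list was -0.26. Ir75b, an acid-sensing receptor of the antenna, had 0.261, 0.218 and 0.109 CPM in JmjC heads, against 0.928 to 2.32 CPM over the missense heads (log2 fold -3.12 ± 0.61, adjusted p = 0.00157), Obp8a was lower (-1.08), and Obp58c (3.88), Gr64a (1.95), Gr32a (0.84) and Ir62a (0.36) were higher. Without JmjC 1 there were 4 lower and 1 higher, without JmjC 2 there were 5 and 1. The 5 antennal markers summed to 190 to 243 CPM in JmjC heads, 295 to 386 CPM in A224T and 344 to 471 CPM in L854F, and the part of antennal tissue was not tested.

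Of 26 muscle genes 11 were lower (42.3%, against 9.19% of all genes) and 0 higher (median -0.35). Zasp52, a Z-disc protein, had 242, 250 and 277 CPM in JmjC heads, against 332, 440 and 336 CPM in A224T, 405, 465 and 493 CPM in L854F and 332, 359 and 404 CPM in WT (log2 fold -0.68 ± 0.097, adjusted p = 0.000102), and Mf, a protein of myofibrils, was lower by 0.52 on the log2 scale. The list summed to 8447 to 9179 CPM in JmjC heads, against 9546 to 13420 CPM in A224T heads, 10088 to 11387 CPM in L854F heads and 9466 to 10652 CPM in WT heads. The lower muscle genes numbered 5 to 7 without each of JmjC 1, 2 and 3, A224T 2 and 3, and L854F 2 and 3. Of 17 glial genes 5 were lower (29.4%) and 1 higher (5.88%), against 9.19% and 8.34% of all genes. Eaat1 (-0.40) and Gat (-0.61), transporters of glutamate and GABA, Gs2 (-0.26), the glutamine synthetase, wrapper (-0.33) and zyd (-0.40) were lower. The phagocytic receptor drpr was higher (0.18, adjusted p = 0.0420), a call lost without JmjC 1, 2 or 3 or L854F 1 or 2 (adjusted p up to 0.165). The glial list summed to 3506 to 3684 CPM in JmjC heads, 3643 to 4866 CPM in A224T and 4194 to 4295 CPM in L854F, and without JmjC 1 or JmjC 2 it held 3 lower genes. The part of muscle and glial content was not tested.

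Genes of reproduction and sex served as checks on what the heads held. Of 79 tested male reproductive genes 1 was lower, Est-6 (log2 fold -0.65, adjusted p = 0.0182; call lost without each of JmjC 1, 2 and 3), with 271, 272 and 256 CPM in JmjC heads, against 299, 318 and 245 CPM in A224T and 687, 661 and 476 CPM in L854F, so JmjC overlapped A224T. The median of that list was -1.06, and -0.20 with the 9 libraries alone, with many members at 0 in some libraries. The yolk protein gene Yp1, of female fat body, had 8683, 7528 and 7662 CPM in JmjC heads, against 8101, 10955 and 9064 CPM in A224T and 13970, 12003 and 9422 CPM in L854F. Its log2 fold was -0.40, with an adjusted p of 0.585 with the 5 WT libraries as 1 group and 0.0296 with them as 2 groups. Of 22 ovary and germline genes 3 were higher (13.6%) and 1 lower (4.55%), against 8.34% and 9.19% of all genes. Higher were fs(1)M3, an eggshell gene (1.33), and the centrosomal genes Cp110 (0.46) and Cp190 (0.18), which a name pattern placed in the list. Lower was Cp38, a chorion gene near the detection limit (-3.26, adjusted p = 0.0489). The call of Cp38 was lost in 7 of the 9 fits that leave out a library (adjusted p up to 0.157), and that of Cp110 without JmjC 2 (0.0614) or JmjC 3 (0.0557). Cp190 lost its call in at least 1 such fit. Of 22 sex determination and dosage compensation genes mof, the acetyltransferase of the dosage compensation complex (X 5873840 to 5876853), was higher at 14.7, 13.6 and 14.5 CPM in JmjC heads, against 11.1, 9.38 and 11.5 CPM in A224T, 7.93, 8.20 and 8.29 CPM in L854F and 9.14, 8.68 and 10.3 CPM in WT (log2 fold 0.62 ± 0.11, adjusted p = 0.000909). msl-1, of the same complex (0.21), was higher and fru (-0.40), a regulator of courtship, lower. Both lost their calls without JmjC 1 or JmjC 2.

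Chromatin genes related to histone methylation had 6 higher (17.1%) and 1 lower (2.86%) of 35, against 8.34% and 9.19% of all genes. The lower one was Kdm5 itself. Sin3A (2R 12575240 to 12592917), the scaffold of a histone deacetylase complex, measured 413, 418 and 422 CPM in JmjC heads, against 304, 303 and 292 CPM in A224T, 287, 298 and 341 CPM in L854F and 308, 345 and 375 CPM in WT. JmjC lay above all other libraries with little spread (log2 fold 0.46 ± 0.063, adjusted p = 6.67e-05). Art7, an arginine methyltransferase, had 19.7, 21.9 and 15.2 CPM in JmjC heads, against 12.1, 9.67 and 12.3 CPM in A224T, 10.2, 11.1 and 9.65 CPM in L854F and 11.7, 11.6 and 11.5 CPM in WT (log2 fold 0.81 ± 0.12, adjusted p = 0.000144). JMJD5 (0.62), NSD (0.31), ash2 (0.26) and Set2 (0.25), named after their values were seen, were the other higher genes, and the last 3 lost their calls in at least 1 fit that leaves out a library. Without JmjC 2 or JmjC 3, 3 genes of the list were higher.

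**Figure D5:**
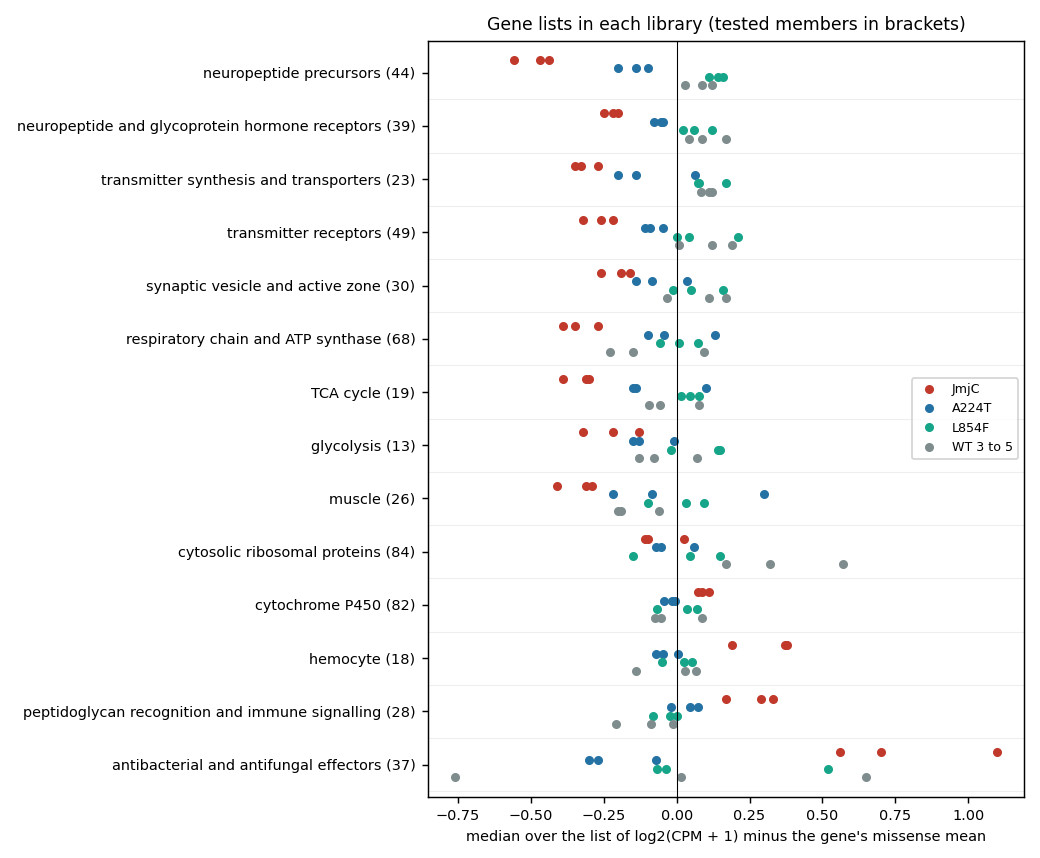
Median deviation of 14 gene lists in each library, as log2(CPM + 1) minus the gene's mean over the A224T and L854F libraries, for JmjC, A224T, L854F and WT 3 to 5. For neuropeptide precursors the JmjC points lie at -0.56 to -0.44, A224T at -0.20 to -0.10 and L854F at 0.11 to 0.16, whereas for cytosolic ribosomal proteins the JmjC points overlap both missense strains and the WT points lie above.

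Several lists had a larger median difference from L854F than from A224T, and no test compared the lists. Median log2 folds of JmjC were -0.44 against A224T and -0.66 against L854F for neuropeptide precursors, -0.17 and -0.38 for transmitter receptors, -0.24 and -0.44 for transmitter synthesis and -0.14 and -0.28 for synaptic vesicles. The same order held outside the neuronal lists, at -0.13 and -0.35 for glycolysis and -0.27 and -0.40 for the TCA cycle. It was -0.34 and -0.38 for the respiratory chain and -0.32 and -0.38 for muscle. A224T and L854F differed by test in single genes, such as AstC (A224T minus L854F log2 fold -0.67, adjusted p = 4.58e-05), Dh44 (-0.78, 3.15e-05) and SPR (-0.97, 3.15e-05), with all 3 A224T libraries below all 3 L854F libraries in each.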

How the data were processed

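Poly(A) RNA of fly heads was extracted with Trizol and made into stranded libraries, per the labels' protocols. The authors deposited 1 table of whole-number read counts per gene for 23 head libraries. Per the submitters' processing notes, the build was dm6 and the tools included STAR, featureCounts, fastp and DESeq2; versions, annotation and strand option were not found in the labels or headers. Of 17830 gene rows, 17751 had a symbol, and coordinates are RefSeq's for dm6. The counts were fitted as deposited with edgeR 4.0.16 (R 4.3.3): TMM scaling, filterByExpr (12093 genes kept), 1 mean per strain over all 23 libraries and the quasi-likelihood F-test, with calls at an adjusted p under 0.05. CPM values are TMM-scaled, and SE is the log2 fold over the root of F. WT comparisons use WT 3 to 5 as a group of their own. DESeq2 1.42.0 was an alternative. The fit was tested on simulated data. Counting error was not given separately, since replicates differed by more.

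The strains compared and the gene lists were chosen with earlier results of these data known. Some lists share members, such as Cadps, Vmat, Gs2, SdhA and SdhB, which were counted in each. Genes are named where they check the labels (Kdm5, roX1, roX2, Yp1), where they were among the 12 largest rises or falls at 5 CPM or more, without overlap and called against both missense strains, or where they had the 2 smallest p-values each way in a list; called neuropeptide genes are all named. Other members named in lists with few calls, and the genes said to be so, were chosen after their values were seen. Ribosome profiling samples were not used here.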

Additional observations from a re-analysis of the deposited data

Results flagged for a closer look

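For 38 of the named genes A224T and L854F differed by test, so that JmjC stood at different distances from the 2 missense strains. Values are A224T minus L854F log2 folds from the same edgeR fit, each at an adjusted p under 0.05, and a negative value means lower in A224T.

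Among neuropeptide genes the values were -0.67 for AstC, -0.39 for Ms, -0.38 for Proc, -0.78 for Dh44, -0.42 for sNPF, -0.65 for Tk, -0.57 for Dh31, -0.80 for Dsk, -0.76 for AstA, -0.81 for Pdf and -0.50 for FMRFa. In each of these 11 precursors A224T lay between JmjC and L854F. For Ilp6 the value was 0.89. The convertase gene amon had -0.28, and the receptor genes CrzR and SPR had -0.42 and -0.97. Among transmitter genes Ddc had -0.33, Gad1 -0.38 and Grik -0.47.

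Among the genes with the largest folds, mah had 2.36, CG32523 -1.42, CG12655 -0.99 and rdhB -0.54, and JmjC was called against each strain in all 4. In visual genes inaF-C had -0.61 and inaF-B -0.59, with overlapping reads. Metabolic and stress genes included mRpL39 at 0.33, Pfk at -0.25, Hsc70-1 at -0.72, GstE3 at -0.49, MsrA at -0.73, Cyp12c1 at 1.93, Cyp4c3 at -0.56 and raptor at 0.29. Cuticle genes were Cpr66D at 2.07, Cpr76Bd at 1.92 and TwdlG at -1.18. In the reproductive lists Est-6 had -1.08, fs(1)M3 1.68 and Cp110 0.91.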

How the results depend on the processing

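Higher and lower calls of JmjC against the missense mean numbered 1667 and 574 with library size alone, and 1825 and 1828 with only the 9 libraries in the fit. Leaving out 1 library gave 518 to 1060 higher and 546 to 990 lower. Against A224T there were 871 higher and 843 lower with the 9 libraries, 660 and 725 with WT as 2 groups (added after the data were seen), and 124 to 402 and 90 to 293 on leaving out 1 library. Lower calls against A224T were 160 with library size alone, 516 with DESeq2 and 216 with no filter on low counts. Against L854F there were 2014 higher and 750 lower with library size alone, 2043 and 2058 with the 9 libraries, and 715 to 1257 and 895 to 1381 on leaving out 1 library. Against both strains singly there were 720 and 682 with the 9 libraries, 526 and 601 with WT as 2 groups, and 106 to 295 and 71 to 230 on leaving out 1 library, with lower calls at 115 with library size alone, 421 with DESeq2 and 175 with no filter. The cause of these shifts was not tested.

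With the 9 libraries and the replicate block, the higher and lower calls were 1681 and 1709 against the mean, 749 and 689 against A224T, 1917 and 1944 against L854F, and 618 and 563 against both. The numbers were not treated as pairing samples: deviations of same-numbered libraries correlated at -0.121 to 0.301, and not every library correlated best with its own number.

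Of 160 named calls, 158 had a value with DESeq2, 159 with the filter of 1 CPM in 3 libraries and 160 in the other alternatives, and none of these values changed direction. Calls lost numbered 26 with library size alone, 12 with no filter, 24 with the missense libraries as 1 group, 4 with the block, 6 without the D234G libraries (added after the data were seen) and 12 to 40 on leaving out 1 library, the most without JmjC 2. roX1 was called with the 9 libraries (adjusted p = 1.79e-05) and the block (6.59e-05), and roX2 (0.0384) and Yp1 (0.0296) with WT as 2 groups. With 3 libraries a strain and JmjC the shallowest, small folds of weakly expressed genes are the least certain.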

Other observations

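Genes of chromosome 4, the small chromosome that carries much heterochromatin, were lower more often than genes of the other arms. Of 105 tested, 24 were lower (22.9%) and 1 higher (0.952%), at a median log2 fold of -0.16, while on 2L, 2R, 3L, 3R and X 7.77% to 10.1% were lower and 6.88% to 10.9% higher. The count of lower genes on chromosome 4 was 12 without JmjC 2, 15 without JmjC 3, 13 with library size as the only scaling and 41 with the 9 libraries alone. The X held the highest share of higher genes of these arms, at 10.9%, and its median was 0.015. The arms were looked at after results of these data were known, and no test compared them.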
